A study of Homo sapiens with 6 samples.

Results

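The vector-control arm of the study was described on its own: 3 of the 6 RNA-seq samples, chosen because their labels name them as the control, with no use of any measured value. SKBR3 is an established line of human HER2-positive breast adenocarcinoma cells. The control cells carried a stable lentiviral insertion of the empty pLVX vector and had been selected with puromycin, so they are a drug-selected infected population and not untreated parental cells. The other 3 samples carried pLVX with CTTN cDNA, were infected and selected in the same way, and were not compared here. The series text calls the 3 samples of each arm biological replicates, and total RNA was extracted with Trizol. Per the paper, an mRNA kit was used to make the libraries. The deposited tables give each control library its own column, but the sample descriptions and the deposited sample list number those columns differently, so the columns were matched to the group and are called control libraries 1, 2 and 3 in the order of that list.

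HER2, the protein of ERBB2, is a receptor tyrosine kinase that signals as a dimer with other members of the EGF receptor family, and it is the target of trastuzumab. Luminal breast epithelium is marked by the simple keratins KRT8, KRT18, KRT19 and KRT7, whereas basal and myoepithelial cells carry KRT5, KRT14 and smooth-muscle proteins. SKBR3 is known for a high copy number of ERBB2 and for lacking the adhesion protein E-cadherin. No DNA was measured in these samples, so a high level at a position and a high copy number cannot be told apart here.

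The control libraries held 34887069, 41279833 and 37751011 fragments (read pairs assigned to genes). Levels are given as FPKM, fragments per kilobase of transcript and per 1000000 fragments, on which the levels of different genes are compared. Ranks and shares by fragments, which also depend on transcript length, are named as such. A gene row was called detected when its FPKM was at least 1 in all 3 libraries and silent when it was under 0.1 in all 3. Of 54644 gene rows, 11397 (20.9%) were detected, 36037 (65.9%) were silent and 7210 lay between, and 30777 rows had no fragment in any library. A count of 0 still allows up to 3 fragments in a library, which is 0.0727 to 0.0860 of every 1000000 fragments at these depths and covers counting error only. Some rows merge several overlapping genes (2289 rows, of which 1499 were detected), and a value from such a row is called shared.

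The labelled cell type was checked first, and all 4 of its markers were among the 100 most abundant rows. KRT8, a type II simple keratin, was at 1886, 1835 and 1825 FPKM. KRT18, its type I partner, was at 1124, 1070.1 and 1074 FPKM. KRT19, another type I simple keratin, was at 1823, 1739 and 1746 FPKM. These keratins were close to one another in all 3 libraries, with KRT8 1.70 ± 0.0182 times and KRT19 1.62 ± 0.00166 times the FPKM of KRT18 (SD, n = 3). ERBB2 was at 1646, 1671 and 1708 FPKM, which placed it at rank 38 by FPKM and, as a long transcript, at rank 3 by fragments. Its mean was 1675 ± 30.9 FPKM (SD, n = 3), above every other receptor of its family.

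ERBB3, the kinase-impaired partner of HER2, was in a row shared with PA2G4 at 261, 268 and 279 FPKM, and ERBB2 was 6.22 ± 0.0887 times that row. EGFR was at 15.4, 18.1 and 17.8 FPKM, and ERBB2 was 98.4 ± 7.64 times EGFR. ERBB4 was below the detection limit at 0.644, 0.824 and 0.149 FPKM. By level the order was ERBB2, the row of ERBB3 and PA2G4, EGFR and ERBB4 in each library, and no neighbouring levels in it overlapped. The part of ERBB3 in its shared row is not known, so its own place is not given.

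The abundance of single genes was uneven. The 10 most abundant rows held 12.02% ± 0.107 of the summed FPKM, the 100 most abundant 33.8% ± 0.560 and the 1000 most abundant 66.3% ± 0.603 (SD, n = 3). Counted as fragments, which weight long transcripts more, the same 100 rows held 17.6% ± 0.479. RPL19, a protein of the large ribosomal subunit whose gene lies near ERBB2, led the table at 21715, 20982 and 19879 FPKM. The next single-gene row, RPL7, also a large-subunit protein, reached 6664, 6279.7 and 5998 FPKM. RPL19 lay 16.8 times above the median of the 79 cytosolic ribosomal protein genes (1239 FPKM), RPL7 lay 5.10 times above it, and RPL23, the other ribosomal protein gene close to ERBB2, was at 0.576 times that median. Fragments assigned to the 8 pseudogene rows of RPL19 in the table came to 0.00528% of the total for gene and pseudogenes.

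The other rows among the 25 most abundant were the glycolytic enzyme GAPDH, the peptidyl-prolyl isomerase PPIA, the short-chain dehydrogenase DHRS2, the cytoskeletal actin ACTB, the respiratory complex I subunit NDUFB9 and the elongation factor EEF1A1, together with 2 rows that merge mitochondrial genes. The remaining rows of the 25 were the ribosomal protein genes RPS24, RPS27, RPS2, RPS18, RPSA, RPL37, RPS21, RPL10, RPL15, RPL35, RPS16, RPS14, RPS19, RPS3 and RPL8, some of them in rows shared with small nucleolar RNAs. GAPDH was at 4505, 4644 and 4569.9 FPKM and ACTB at 2849.6, 2827 and 2804 FPKM. DHRS2 was at 3158, 3242 and 3257 FPKM, above ACTB in all 3 libraries. NDUFB9 was at 2781, 2745 and 2651 FPKM. All 79 ribosomal protein genes were detected, with none under 300 FPKM, and together they held 22.5% ± 0.579 of the summed FPKM. Of these 79, 73 had their highest FPKM in control library 1, against 35.1% of all rows with a mean FPKM of at least 1. That library had the largest summed FPKM (624680, against 609489 and 603634). Its rows with the shortest transcripts, by the length implied by FPKM and fragments, stood higher by 0.05 (log2). The part of either in this count was not tested. The 8 mitochondrial rows held 2.77% ± 0.128 of the fragments.

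**Figure D1:**
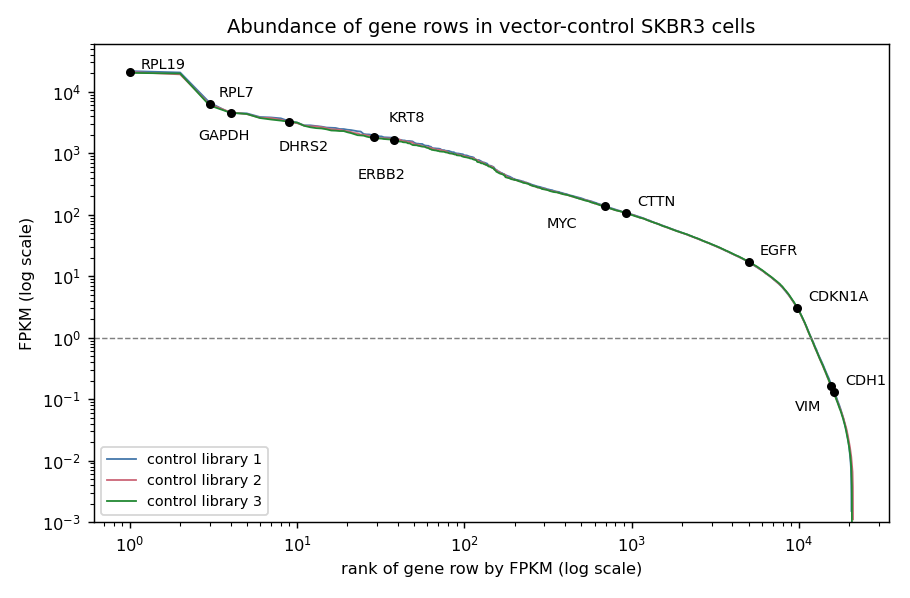
FPKM of every gene row in each control library (log scale) against its rank in that library (log scale), with black points at the mean FPKM and rank of 12 named genes and a dashed line at an FPKM of 1. The curves of the 3 libraries lie on one another, RPL19 stands at the top, and KRT8 and ERBB2 lie near each other at ranks 29 and 38.

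Enzymes of glycolysis and chaperones were all detected, beside 54.8% of single-gene protein-coding rows and 20.9% of all rows. All 17 glycolysis genes looked at were detected, and they held 1.76% of the fragments. ENO1 (enolase) was at 1686, 1685 and 1642 FPKM and ALDOA (aldolase) at 1435, 1386 and 1355 FPKM. LDHA, the lactate dehydrogenase subunit, was at 777, 789 and 785 FPKM. Among the 12 chaperones, all detected, the small heat shock protein HSPB1 was the most abundant at 1584, 1379.6 and 1412 FPKM.

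Of the 30 luminal and apocrine genes 23 were detected in all 3 libraries and 1 (PGR) was silent, and 5 of the 30 lay in shared rows. This count and those of the lists below are read against the 54.8% of single-gene protein-coding rows that were detected. KRT7 was at 984, 888 and 925 FPKM. CD24, a surface glycoprotein of luminal cells, was at 710.2, 687 and 687 FPKM. The epithelial adhesion molecule EPCAM was at 163, 151 and 153 FPKM and the tight junction protein CLDN4 at 208, 192 and 190.1 FPKM. These surface and cytoskeletal genes lay well above the median detected row, which had a mean of 13.7 FPKM.

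Transcription factors of the luminal program covered a wide range. XBP1, the factor of the unfolded protein response, was at 419, 388 and 388 FPKM. SPDEF, an ETS factor of secretory epithelium, was at 133, 135 and 138 FPKM, and TFAP2C, an AP-2 factor that binds the ERBB2 promoter, was at 91.8, 90.1 and 89.1 FPKM. FOXA1, a pioneer factor, was at 80.8, 84.4 and 87.3 FPKM and GATA3, a luminal GATA factor, at 10.95, 11.2 and 11.4 FPKM. XBP1 was the highest of these in every library and GATA3 the lowest, with SPDEF, TFAP2C and FOXA1 in that order between them. Among other listed factors, GRHL2 (7.67, 8.71 and 7.87 FPKM) lay below GATA3 and TFAP2B was below the detection limit. TFAP2A and EHF lay above GATA3, at means of 41.6 and 12.5 FPKM.

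The hormone receptors ESR1 and PGR were not detected. ESR1, the oestrogen receptor, lay in a shared row at 0.352, 0.316 and 0.398 FPKM, below the detection limit. PGR, the progesterone receptor, had 0 fragments in all 3 libraries. Secreted products of luminal and apocrine cells ranged widely, with the zinc glycoprotein AZGP1 at 306, 292 and 292 FPKM, the disulfide isomerase AGR2 at 142, 129 and 133 FPKM, and mammaglobin SCGB2A2 at 78.1, 75.7 and 68.8 FPKM. The prolactin-inducible protein PIP was at 1.65, 2.12 and 1.52 FPKM and the trefoil factor TFF3 at 1.03, 1.396 and 1.54 FPKM. The secretoglobin SCGB1D2, at 2.37, 0.960 and 1.25 FPKM, and the trefoil factor TFF1, at 0.695, 0.824 and 0.447 FPKM, were not detected in all 3 libraries, and the 4 milk genes CSN1S1, CSN2, CSN3 and LALBA had no fragment in any library.

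CDH1, the gene of E-cadherin, had 14, 7 and 9 fragments (0.244, 0.0954 and 0.0501 FPKM), and its neighbour CDH3 had 0 fragments in all 3 libraries. The next genes on either side of this pair were low, with the zinc-finger gene ZFP90 at 3.62, 3.76 and 2.84 FPKM and TANGO6, a Golgi organisation gene, at 2.12, 2.85 and 2.32 FPKM. Farther out, high and low rows lay side by side: PRMT7, an arginine methyltransferase, was at 31.8, 32.2 and 32.7 FPKM, and UTP4, a ribosome biogenesis factor, was at 47.8, 49.03 and 49.3 FPKM, while a row shared by SMPD3, a sphingomyelinase gene, was at 1.61, 1.24 and 2.17 FPKM, and HAS3, a hyaluronan synthase gene, was at 0.358, 0.386 and 0.532 FPKM. JUP, the junction protein plakoglobin that binds cadherins, was at 203, 198 and 201 FPKM.

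Markers of the other cell types that a breast sample can hold were mostly absent. Of 16 basal and myoepithelial genes 4 were detected and 5 were silent. The detected ones were EGFR, the squamous factor TP63 (1.72, 1.87 and 1.82 FPKM), the calcium-binding protein S100A2 (2.10, 1.65 and 1.002 FPKM) and KRT15 in a row shared with a microRNA gene. KRT5 was at 0.252, 0.329 and 0.358 FPKM and KRT14 had at most 1 fragment in any library. Of 17 mesenchymal genes 3 were detected (FN1, SNAI1 and COL1A1) and 11 were silent. The epithelial-mesenchymal transition factors ZEB1, ZEB2, TWIST1, TWIST2 and SNAI2 had 0 fragments in all 3 libraries, whereas SNAI1, a related zinc-finger repressor, was at 4.37, 4.596 and 4.37 FPKM. VIM, the mesenchymal intermediate filament, had 14, 12 and 6 fragments (0.226, 0.161 and 0.112 FPKM). Fibronectin (FN1) was at 6.99, 5.97 and 5.38 FPKM.

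Of 8 immune genes the only one detected was CD68, in a row that also holds the abundant initiation factor EIF4A1. PTPRC, the leukocyte marker CD45, had 3, 4 and 5 fragments, and MS4A1 and NKG7 had none. Of 4 endothelial genes CDH5 was detected (3.96, 4.45 and 4.03 FPKM) and PECAM1 was at 0.0220, 0.00621 and 0.00342 FPKM. None of 4 adipocyte genes was detected. The summed FPKM over unshared rows was 3429, 3229.9 and 3270.1 for the luminal list against 21.4, 23.8 and 23.6 for the basal list and 15.9, 15.1 and 15.1 for the mesenchymal list.

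**Figure D2:**
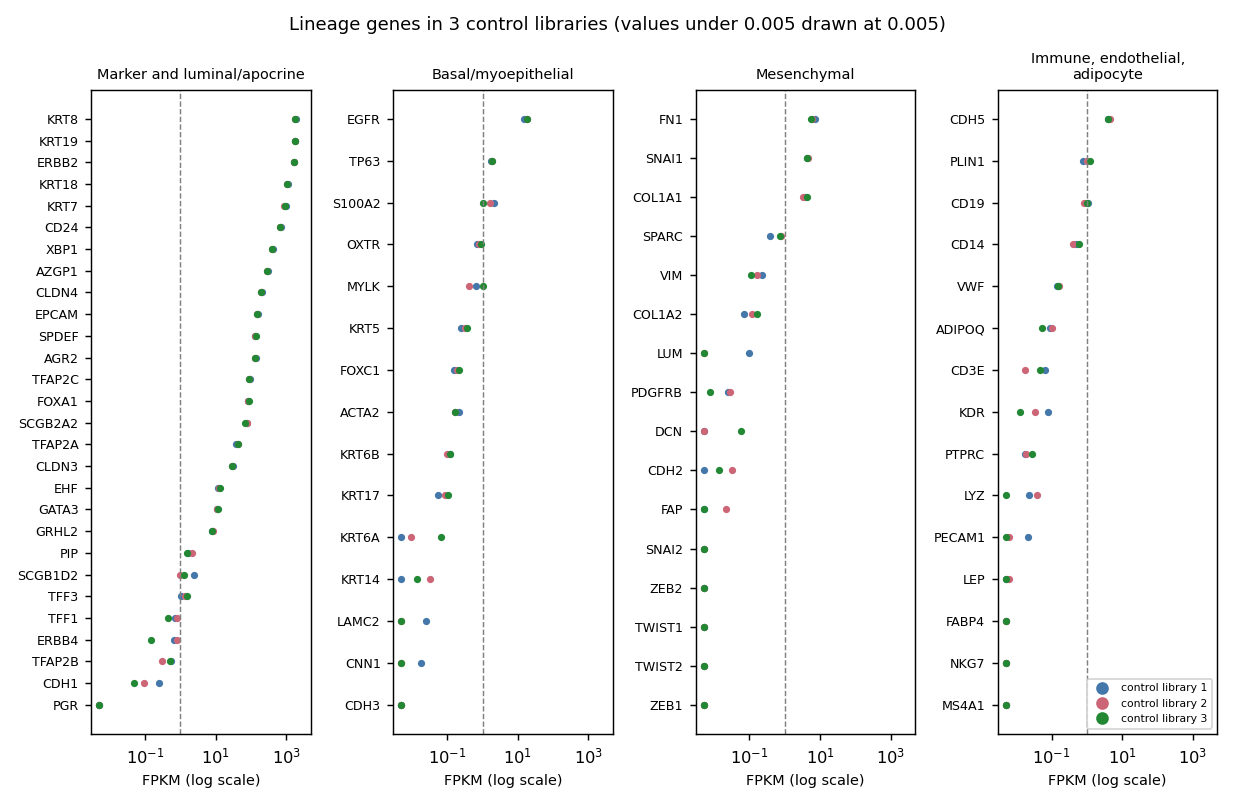
FPKM of lineage genes (log scale, those with a row of their own that are reported here) in each of the 3 control libraries, as coloured points, with a dashed line at an FPKM of 1 and values under 0.005 drawn at 0.005. Most marker and luminal genes lie right of the line, most basal, mesenchymal, immune, endothelial and adipocyte genes lie left of it, and CDH1 lies near the bottom of the first panel.

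The 14 oncogenes and tumour suppressors looked at were all detected, 3 of them in shared rows. MYC was at 139, 133 and 141 FPKM, the cyclin gene CCND1 at 93.4, 104 and 105 FPKM, and CTTN, which encodes the actin-binding protein cortactin, at 104, 108 and 108 FPKM. The 3 levels of MYC lay above those of CCND1 and CTTN in each library. CDKN2A, a cell cycle inhibitor gene, was at 45.7, 42.5 and 43.4 FPKM and RB1, the retinoblastoma gene, at 11.1, 10.01 and 11.1 FPKM. The cyclin-dependent kinase inhibitor CDKN1A was low, at 3.40, 2.81 and 2.94 FPKM.

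Gene families differed in how many members were detected. Of 55 keratins 12 were detected and 32 were silent. After KRT8, KRT19, KRT18 and KRT7 the highest were the hair-type keratin KRT81 (320.2, 298 and 298 FPKM) and the mucosal keratin KRT4 (225, 222 and 214 FPKM). Of 19 S100 calcium-binding proteins 13 were detected. S100A6 was at 1498, 1520.3 and 1349 FPKM, S100A9 at 1435, 1318 and 1315 FPKM, and S100A16, S100A14 and S100A11 lay between 769 and 884 FPKM in every library. S100A8, the dimer partner of S100A9, was at 283, 262 and 259 FPKM. S100A9 and S100A8 together form calprotectin, best known from neutrophils, and the leukocyte marker PTPRC was near 0 in the same libraries.

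Protein-coding genes made up most of what was detected: 54.8% of 15739 single-gene protein-coding rows were detected and 31.6% were silent. Of 3068 long noncoding RNA rows 6.78% were detected, of 9759 pseudogene rows 0.840%, and none of 1518 microRNA gene rows. Because the libraries were made with an mRNA kit, silence of microRNA and other noncoding rows cannot be told apart from how the libraries were made. Some silent protein-coding genes lay in runs along the chromosomes. There were 51 runs of at least 8 consecutive silent protein-coding genes, holding 767 of the 4939 silent ones among 15701 placed, so most silent genes lay outside such runs. Only single-gene rows were placed, so a run can pass over genes in merged rows. The longest, from OR4C13 to APLNR on chromosome 11, held 50 genes, 47 of them with 0 fragments, and consisted mostly of olfactory receptors. Next came 42 genes from NLRP3 to OR14I1 on chromosome 1, and 33 genes from KRTAP24-1 to KRTAP19-8 on chromosome 21, the latter keratin-associated proteins of hair and all at 0. A run of 17 genes from UGT2B28 to MUC7 on chromosome 4 held the casein genes. Of 379 olfactory receptor genes 369 were silent and 3 were detected, and none of 94 keratin-associated protein genes was detected.

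Abundance by position was described next, for 11805 rows with a mean FPKM of at least 1, in windows of 1 Mb with at least 5 such rows. The 923 windows were set against the median over all these rows, 12.9 FPKM, and the highest decile began at 85.8 FPKM. The highest median, 221 FPKM over 9 rows, was that of the type II keratin cluster on chromosome 12 (52 to 53 Mb), with KRT8, KRT18, KRT7, KRT81, KRT4, KRT80, KRT86, ATG101 and NR4A1. The next, 156 FPKM over 6 rows, lay on chromosome 5 (1 to 2 Mb), where the acyltransferase LPCAT1 was at 210.3, 215 and 217 FPKM, the complex I subunit NDUFS6 at 191, 193 and 192 FPKM, and CLPTM1L at 171, 175 and 182 FPKM. The window around ERBB2 on chromosome 17 (39 to 40 Mb) was the third, with a median of 127 FPKM over 20 rows, 9.82 times the median of all rows. On the log2 scale it lay 3.30 above that median, but 0.83 above it in windows of 2 Mb, 2.26 with means in place of medians and 2.15 with low rows included. It held 11 rows of the highest decile, the most of any window together with the one on chromosome 1 (153 to 154 Mb) that holds RPS27 and the S100 cluster.

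The fourth window, on chromosome 8 (73 to 74 Mb), held RPL7, the elongin gene ELOC (277, 260.2 and 253 FPKM), TERF1, STAU2, RDH10 and TMEM70. The fifth, on chromosome 17 (41 to 42 Mb), held KRT19, the initiation factor EIF1 (625, 610.2 and 595 FPKM), JUP, FKBP10, NT5C3B and ACLY, the enzyme that makes cytosolic acetyl-CoA (139, 144 and 147 FPKM). In all, 27 windows lay at least 2 above the overall median on the log2 scale. Over whole chromosomes the medians ranged from 8.85 FPKM on chromosome 4 to 18.3 FPKM on chromosome 20.

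From NEUROD2 to TOP2A, a stretch of 0.797 Mb around ERBB2, 44 rows were listed, 22 had a mean FPKM of at least 1 and 14 were silent. The median of those 22 was 127 FPKM, 9.83 ± 0.0907 times that of all rows with a mean of at least 1 (SD over 3 libraries), and 13 of them were in the highest decile. The stretch held 1.49% ± 0.0296 of all fragments. On the side of NEUROD2, PPP1R1B, a phosphatase inhibitor, was at 26.0, 22.5 and 22.6 FPKM. The lipid transfer protein STARD3 was at 385, 386 and 398 FPKM, the muscle gene TCAP at 9.56, 7.58 and 8.09 FPKM and the enzyme PNMT, which makes adrenaline, at 1.58, 1.20 and 1.46 FPKM. High and low genes thus lay next to each other on the side before ERBB2.

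The tables give PGAP3, ERBB2 and MIEN1 the same merged locus. MIEN1 was at 561, 501 and 497 FPKM and PGAP3, an enzyme that remodels GPI anchors, at 90.3, 86.5 and 91.5 FPKM. Beyond this locus the HER2-binding adaptor GRB7 was at 324, 285 and 291 FPKM. ERBB2 itself was 3.23 ± 0.265 times MIEN1, 4.30 ± 0.0265 times STARD3 and 5.61 ± 0.4551 times GRB7. The lymphoid factor IKZF3 was at 0.548, 0.590 and 0.536 FPKM and ZPBP2, a sperm protein gene, had 0 fragments. Past these 2 genes, GSDMB, a gasdermin, was at 292, 275 and 276 FPKM, ORMDL3, a regulator of sphingolipid synthesis, at 218, 216 and 204 FPKM and the proteasome subunit PSMD3 at 404, 411 and 406 FPKM. Farther on, MSL1 had a mean of 215 FPKM, CDC6 144 FPKM, RARA 47.3 FPKM, THRA 15.4 FPKM, NR1D1 5.96 FPKM and TOP2A 149 FPKM.

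On the other side, outside the stretch, CDK12 was at 198, 219.9 and 234 FPKM and the Mediator subunit MED1 at 160, 185 and 193 FPKM. FBXL20 was at 22.2, 22.0 and 22.6 FPKM, and RPL19 lay beyond FBXL20. Over the wider span within 1 Mb of ERBB2, 45 rows had a mean FPKM of at least 1, their median was 2.21 ± 0.0980 times that of all such rows, and 20 of them were in the highest decile.

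The 7 other loci listed as often amplified in cancer were looked at in the same way, over rows within 1 Mb. The fold of the median over that of all rows is given with the SD of the fold over 3 libraries. It was 2.27 ± 0.672 around MYC (5 rows), 3.64 ± 0.0398 around ZNF217 (3 rows), 2.23 ± 0.0479 around EGFR (9 rows) and 1.95 ± 0.142 around MDM2 (10 rows). It was 1.20 ± 0.0773 around CTTN and CCND1 (8 rows), 0.786 ± 0.00794 around FGFR1 (17 rows) and 0.358 ± 0.0346 around PPM1D (11 rows). Around MYC the fold was 2.39 and 2.31 in libraries 1 and 2 but 1.19 in library 3, where the PVT1 row was at 15.4 FPKM. The PVT1 row held 441, 539 and 443 fragments in the 3 libraries, a narrower range than that of its FPKM (45.5, 67.4 and 15.4). MYC was the only row of the highest decile around it, and around CTTN these rows were CTTN and CCND1.

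Promoter sequences are shown because their base composition differed between detected and silent genes. They come from RefSeq (GRCh38.p14) and were matched by symbol to 12544 of the 15739 single-gene protein-coding rows. CpG content was measured as the observed over the expected number of CG dinucleotides in the 300 bases from 250 before to 50 after the start. Its median was 0.854 over 7140 detected genes, 0.663 over 1648 genes between the limits and 0.342 over 3756 silent genes, beside 0.764 over all. A ratio of at least 0.6 was found for 86.0% of detected and 32.2% of silent genes. The 7751 genes with a mean FPKM of at least 0.1 and at least 100 fragments were also ranked by mean FPKM in 10 deciles, whose median ratio went from 0.731 in the lowest to 0.862 in the fifth and 0.875 in the highest. The 200 bases before the start follow in the direction of transcription, with CG in capitals, for the gene that names the HER2 subtype, its abundant neighbour RPL19, the marker KRT8, the glycolysis gene GAPDH, and ZEB1 and PGR, which had no fragment.
ERBB2 promoter, chr17:39687894-39688093, plus strand: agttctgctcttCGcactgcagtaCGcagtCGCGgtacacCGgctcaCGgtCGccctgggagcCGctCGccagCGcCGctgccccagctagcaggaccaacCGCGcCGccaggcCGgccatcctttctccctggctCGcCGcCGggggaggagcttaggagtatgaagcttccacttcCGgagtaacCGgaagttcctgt
RPL19 promoter, chr17:39200083-39200282, plus strand: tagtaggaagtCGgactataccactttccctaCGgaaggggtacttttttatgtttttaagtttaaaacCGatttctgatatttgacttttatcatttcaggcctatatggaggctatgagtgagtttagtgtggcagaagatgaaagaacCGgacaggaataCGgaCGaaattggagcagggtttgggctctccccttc
GAPDH promoter, chr12:6535064-6535263, plus strand: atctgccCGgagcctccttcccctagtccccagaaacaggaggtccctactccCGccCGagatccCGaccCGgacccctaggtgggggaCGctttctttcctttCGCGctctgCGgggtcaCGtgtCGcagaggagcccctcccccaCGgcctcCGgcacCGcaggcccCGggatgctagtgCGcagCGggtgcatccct
KRT8 promoter, chr12:52926470-52926669, minus strand: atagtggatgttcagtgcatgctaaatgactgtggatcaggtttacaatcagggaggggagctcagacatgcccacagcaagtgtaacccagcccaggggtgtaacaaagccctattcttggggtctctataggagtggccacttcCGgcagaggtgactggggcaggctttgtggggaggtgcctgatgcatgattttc
ZEB1 promoter, chr10:31318217-31318416, plus strand: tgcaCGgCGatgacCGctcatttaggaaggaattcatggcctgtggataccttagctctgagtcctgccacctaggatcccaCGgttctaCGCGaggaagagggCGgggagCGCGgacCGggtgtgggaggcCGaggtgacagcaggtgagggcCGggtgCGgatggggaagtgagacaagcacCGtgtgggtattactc
PGR promoter, chr11:101129078-101129277, minus strand: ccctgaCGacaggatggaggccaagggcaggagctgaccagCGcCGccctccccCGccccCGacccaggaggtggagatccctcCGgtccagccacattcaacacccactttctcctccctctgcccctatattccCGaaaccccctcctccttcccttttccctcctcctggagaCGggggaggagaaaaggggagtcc

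The table gives 1 start per gene, and which start the cells used was not measured, so the values for single genes hold for these windows only. The ERBB2 window lies inside the merged locus of ERBB2, PGAP3 and MIEN1, and its ratio was not shown to belong to ERBB2 alone. The KRT8 window lies inside the locus that KRT8 shares with KRT18. CpG content did not sort these windows by level. The ratio was 0.873 for ERBB2, 0.861 for RPL19 and 0.761 for GAPDH, but 0.111 for KRT8, which was more abundant than ERBB2. ZEB1 had a ratio of 0.682 and PGR 0.506, both above the median of silent genes, with 0 fragments each.

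**Figure D3:**
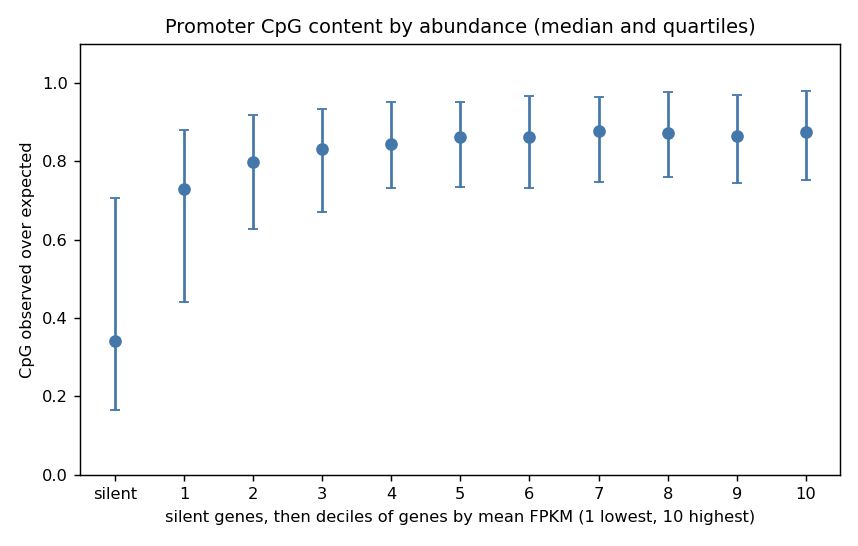
Median CpG observed over expected ratio in RefSeq promoter windows (points) with quartiles (bars), for 3756 silent genes and for 10 deciles of 7751 genes ranked by mean FPKM. The silent genes lie lowest at 0.342, and the medians of the fifth decile and above lie between 0.861 and 0.877.

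The letters TATAAA on the coding strand, between 40 and 20 bases before the start, were in 3.59% of all 12544 promoters, 1.36% of those of detected genes and 7.53% of those of silent genes. They were in 8 of the 100 most abundant genes with a matched promoter. Among those 8 were DHRS2 and S100A9, whose last 60 bases before the start are shown with TATAAA in capitals.
DHRS2 promoter, chr14:23630055-23630114, plus strand: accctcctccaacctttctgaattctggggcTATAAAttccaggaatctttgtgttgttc
S100A9 promoter, chr1:153357794-153357853, plus strand: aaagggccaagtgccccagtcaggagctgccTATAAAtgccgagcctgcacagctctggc
The DHRS2 window held no CG at all, and that of S100A9 had a ratio of 0.218. A terminal oligopyrimidine (TOP) start, here a C followed by 4 pyrimidines, was at the RefSeq start of 65% of 40 matched ribosomal protein genes, against 4.42% of all promoters and 11.7% of the 60 most abundant genes that are not ribosomal. RPL19, the most abundant of them, did not have these letters at its RefSeq start. These are matches of letters, not measured sites.

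The replicate spread was small for well-covered genes. Over 11815 rows with a mean FPKM of at least 1 the coefficient of variation (SD over mean) of 3 libraries had a median of 5.15%, and it was under 10% for 79.1% of the rows. The median fell from 12.97% at 1 to 3 FPKM to 2.81% at 100 to 300 FPKM and was 2.93% at 300 to 1000 and 3.99% above 1000 FPKM. Across genes, log2 FPKM correlated between pairs of libraries with Pearson's r of 0.993 to 0.995, where genes are not independent replicates. Squared differences between pairs of libraries were scaled so that counting noise alone (Poisson) gives a median near 1. That median was 1.40 to 1.76 for rows with 10 to 100 fragments in a pair and 11.7 to 20.3 for rows above 10000. Separate samples can differ by more than counting noise, so no conclusion is drawn from it. Rows were also ordered by the transcript length implied by their FPKM and fragments, as no annotated length was used. The median deviation of library 1 from the mean of 3 was 0.05 (log2) among rows of the shortest implied length (median 892 bases). It was -0.06 among the longest (median 5189 bases), and in library 3 it went from -0.03 to 0.03.

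Some wide FPKM ranges were not matched by the fragments behind them. Of 11378 rows with a mean FPKM of at least 1 and at least 100 fragments in all, 56 ranged over more than 2-fold in FPKM but 11 in fragments scaled to library size. The row of PLCH1, a phospholipase C gene, was at 6.77, 168 and 6.66 FPKM with 1672, 1953 and 1787 fragments, a 25.2-fold range in FPKM against 1.01-fold in scaled fragments. RAB28, a small GTPase gene, was at 6.97, 6.18 and 19.8 FPKM with 334, 358 and 345 fragments, and MGLL, the monoacylglycerol lipase gene, at 17.3, 16.1 and 34.9 FPKM with 2113, 2680 and 2420 fragments. The row of the noncoding RNA PVT1, next to MYC, was at 45.5, 67.4 and 15.4 FPKM with 441, 539 and 443 fragments. Only the FPKM differed widely between libraries in these 4 rows. RMRP, the RNA of a mitochondrial RNA processing RNase, ranged with its fragments, at 16.3, 17.5 and 5.86 FPKM from 46, 58 and 17 fragments.

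Without the limit on fragments, the 10 rows with the widest FPKM range above a mean of 10 were RNU6-11P, RNU6-16P, RNU6-20P, RNU6-333P, RNU6-41P, RNU6-42P, RNU6-5P, RNY1, the PLCH1 row and AP000763.2. Apart from the PLCH1 row they held between 0 and 13 fragments in any library. A single fragment gave 212 FPKM to RNU6-11P in library 2. RNU6-33P ranked 32 by mean FPKM (2417, 1692 and 1223 FPKM) on 10, 8 and 4 fragments. All 6 rows with a mean of at least 100 FPKM on fewer than 100 fragments belonged to this U6 small nuclear RNA family, and their FPKM rests on few fragments.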

How the data were processed

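RNA-seq of the 3 vector-control SKBR3 samples was analysed from gene tables. The authors deposited FPKM values per gene, and a signal table of fragment counts divided by 1 scale factor per library. Multiplying by that factor gave whole fragments for 100% of values (within 0.01), to the 6 digits printed. Per the labels, reads were converted with bcl2fastq 2.20.0 and processed with Trimmomatic, STAR and Cufflinks. The paper's methods name another trimmer and build hg19, but 99.9% of matched loci overlapped the same gene in RefSeq GRCh38.p14, so positions are taken as GRCh38. No columns lacked a sample or group. Fragment counts over overlapping genes are merged by the authors' quantifier, and strand use is not given in the sources used here.

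Values were described with Python 3.11.15, numpy 2.4.6 and pandas 2.3.3, and figures drawn with matplotlib 3.10.9. Statistics were tested on simulated data. With 1 group no test between groups was made, no p-value is given, and spread is between these 3 samples, which may be technical. Named genes were the 25 rows highest in mean FPKM, the listed lineage genes, the ERBB2 to TOP2A neighbours, the genes of the 5 highest windows, and the 10 rows of mean FPKM at least 10 with the widest range. The members and lists were chosen with earlier results of these data known. Gene families, and genes named outside this rule, were chosen after their values were seen. Alternatives covered thresholds, FPKM against fragments, window size, TPM, and leaving out each library. Isoform, coding sequence and start-site tables were not used here. Some listed genes are counted but not reported singly here.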

Additional observations from a re-analysis of the deposited data

How the results depend on the processing

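Counts of detected, silent and luminal rows stayed within 1.5 times under every alternative run, with 8468 rows detected at an FPKM of at least 5, 12530 at 0.5 and 30777 rows silent at exactly 0. The 100 most abundant rows held 17.6% when fragments were summed and 31.5% without mitochondrial rows (33.5% to 34.1% leaving out a library). The median coefficient of variation was 7.61% with rows down to a mean FPKM of 0.1 and 3.56% to 4.98% leaving out a library, lowest without library 1. The ERBB2 window lay 3.30 above the median of all rows (log2), but 0.83 in windows of 2 Mb, 2.26 with means and 2.15 over all rows. The stretch from NEUROD2 to TOP2A was 11.99 times the overall median in fragments and 9.80 to 11.1 times leaving out a library, highest without library 2. The median CpG ratio of detected minus silent genes was 0.512, 0.528 with detected genes at a mean FPKM of at least 10, and 0.566 against genes with 0 fragments. The last setting and the limit of 100 fragments were chosen after seeing the data. No paired analysis was possible because the description holds a single group and no test. Depth limits rows under 100 fragments, of which 437 had a mean FPKM of at least 1.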

Other observations

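Processed pseudogenes took few fragments beside their abundant parent genes. For the elongation factor EEF1A1 39 annotated pseudogene rows held 0.540% of the fragments of gene and pseudogenes together, for RPL7 60 rows held 0.282%, for PPIA 86 rows held 0.273% and for GAPDH 61 rows held 0.0639%. Of 24 claudins, the membrane proteins of tight junctions, 7 were detected, some of them in shared rows, and 13 were silent. The row that CLDN7 shares with GABARAP and CTDNEP1 was at 507, 477 and 479 FPKM, so the level of CLDN7 alone is not known. Of claudins with a row of their own CLDN4 was highest, at 208, 192 and 190.1 FPKM. CLDN3 was at 30.3, 29.2 and 29.2 FPKM and CLDN1 at 4.02, 4.05 and 4.85 FPKM. CHCHD2, a mitochondrial protein gene within 1 Mb of EGFR, was at 684, 628 and 607 FPKM, and SEC61G, a translocon subunit on the other side, at 254, 249.7 and 224 FPKM, both far above EGFR itself.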
